A study of Mus musculus with 12 samples.

Results

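The matrix metalloproteinases (MMPs), the ADAMTS proteases (a disintegrin and metalloproteinase with thrombospondin motifs) and the tissue inhibitors of metalloproteinases (TIMPs) were followed through differentiation of C2C12 cells, a mouse myoblast line whose cells fuse into multinucleate myotubes. Members were all genes of the C2C12 count table whose symbol was Mmp, Adamts or Timp followed by its number, without the ADAMTS-like genes. This gave 46 of 55385 genes, with 23 MMP, 19 ADAMTS and 4 TIMP genes. Undifferentiated C2C12 control cells (3 libraries of total RNA, called myoblasts here) were compared with C2C12 cells differentiated for 7 days (3 libraries, called myotubes here). Both groups are the same line, with no genetic change or added agent named for either, and no label says that libraries of a group came from separate cultures. P-values therefore measure the spread between these libraries, which may be technical. The 6 other samples of the series, small RNA of E14TG2a mouse embryonic stem cells, were measured for snoRNA families and are not used here.

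MMPs and ADAMTS proteases are zinc enzymes that cut proteins of the extracellular matrix. Most are secreted or held at the cell surface as inactive precursors, and furin-like convertases, plasmin or other MMPs remove the propeptide. TIMPs bind the active site of the mature enzyme and block it, and TIMP2 also takes part in activation of proMMP2 by MMP14 at the cell surface. In muscle, these enzymes are known for remodelling the matrix around myoblasts during migration, fusion and repair. Only RNA levels were measured here, not enzyme activity.

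Library totals ran from 18335785 to 54083215 counts. The labels were checked with defining markers. All 7 myotube markers, among them Myog and Ckm, were higher in myotubes, with a summed level of 112 to 242 CPM (counts scaled to library size) in myoblast libraries and 8319 to 20100 CPM in myotube libraries. Of 5 myoblast and satellite cell markers, Vim and Myf5 were lower in myotubes, Des was higher (log2 fold change 1.83) and Pax7 and Myod1 were not called. Replicate 1 was the lowest library of its group for Pax7 (5.16 CPM against 24.9 and 22.4 in myoblasts, 1.74 against 15.6 and 16.4 in myotubes) and for Myod1 (35.8 against 96.8 and 85.4, 15.3 against 69.6 and 68.8). Myotube replicate 1 stood apart from the other myotube libraries. It had the lowest myotube marker sum, 8319 CPM against 17430 and 20100, and its 5 cycling-cell markers summed to 836 CPM against 218 and 184 in replicates 2 and 3, while myoblast libraries had 2153 to 2212 CPM. Most markers of other cell types were scarce. Of 6 macrophage markers 1 was detected, and the list summed to 1.83 to 2.94 CPM in every library, while 0 of 5 endothelial, 0 of 4 adipocyte, 0 of 5 bone and cartilage and 0 of 4 neutrophil and mast cell markers were detected. Of 4 smooth muscle and pericyte markers 2 were detected, with a sum of 44.4 to 82.8 CPM over the 6 libraries, most of it Cspg4 (not called), while Cnn1 was lower in myotubes (log2 fold change -4.73). All 4 fibroblast markers were detected, and their sum was 62.6 to 69.2 CPM in myoblasts and 245 to 432 in myotubes, highest in myotube replicate 1. Col1a1, also counted below among the collagens, made up most of the myotube sum (314, 209 and 256 CPM). Pdgfra was at 81 CPM in myotube replicate 1 against 28.6 and 31 in the other myotube libraries, Dpt was also higher in myotubes, and Twist2 was lower (log2 fold change -2.72). The part of these lists in the results below was not tested. In such bulk RNA, fewer cells of a type and less RNA per cell cannot be told apart.

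Detection was taken as at least 0.5 CPM, from raw counts and the library total, in all 3 libraries of a group. By this measure 21 of the 46 members were detected in myoblasts and 23 in myotubes, against 23.4% and 25.2% of all genes in the table. Both groups shared 20 of them. Adamts3, Adamts15 and Adamts16 were detected in myotubes only, and Mmp24 in myoblasts only, although all 4 had counts in both groups. The shares differed by family. TIMPs were detected at 3 of 4, ADAMTS genes at 12 of 19 and MMPs at 9 of 23 in at least 1 group.

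Among the members not detected, Mmp1a, Mmp1b, Adamts18 and Adamts19 had 0 counts in all 6 libraries. A count of 0 allows up to 0.0555 CPM in the deepest library and 0.164 CPM in the shallowest, at 3 counts per library and for counting error only. The other 18 had between 1 and 122 counts over the 6 libraries. They include the gelatinase gene Mmp9 (3 counts in myoblasts and 13 in myotubes), the macrophage elastase gene Mmp12 (1 and 2), and Adamts13, the von Willebrand factor protease of plasma (1 and 0). A filter on low counts, which asks for a minimum count in as many libraries as a group holds, left 26 members for testing, so 20 were not tested. A thinly expressed gene passes that filter only through the group in which it is high.

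**Figure D1:**
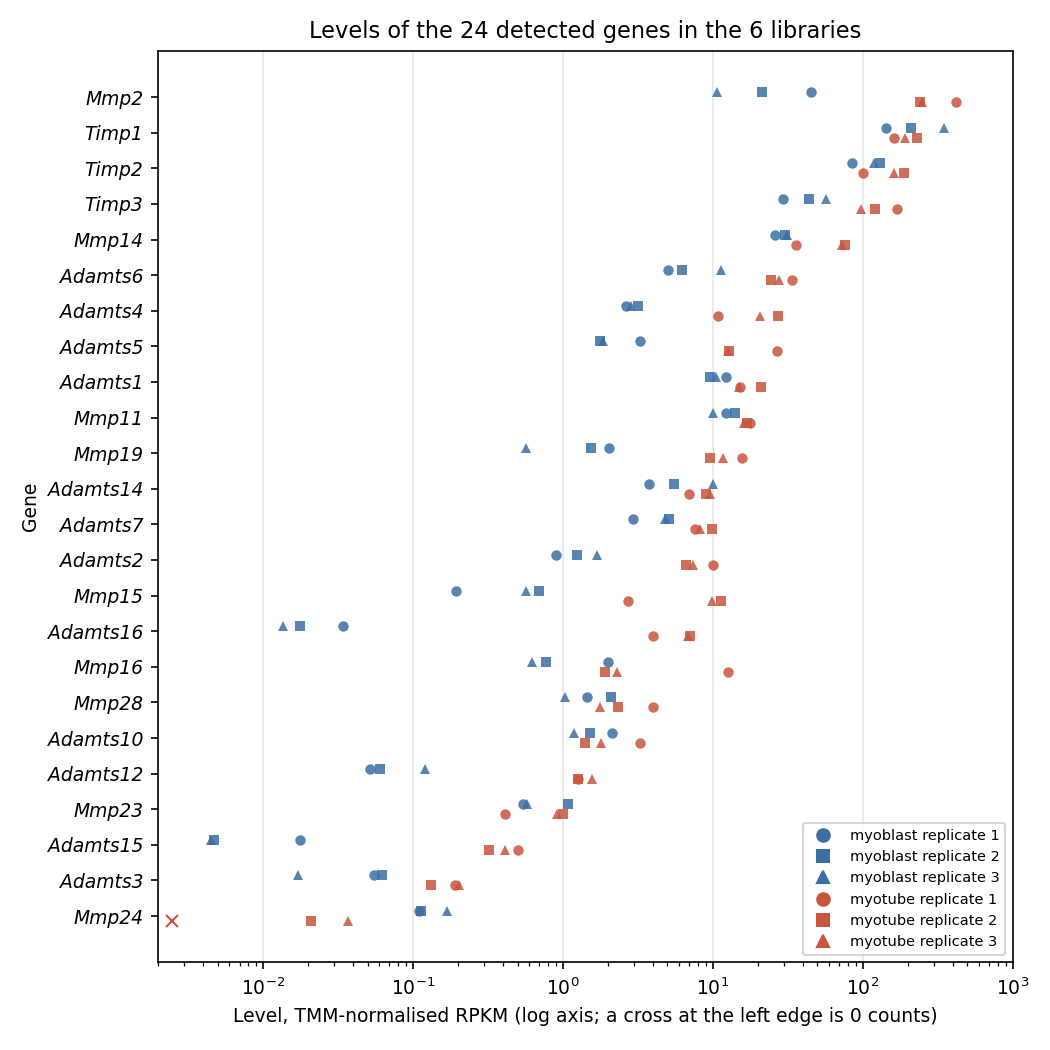
Levels of the 24 members detected in at least 1 group, as TMM-normalised RPKM (reads scaled to gene length and library size) on a log axis, with 1 point per library (blue, myoblasts, and red, myotubes, with circle, square and triangle for replicates 1, 2 and 3). Mmp2, Timp1, Timp2, Timp3 and Mmp14 lead the myotube levels, and Adamts16 shows the widest gap between groups.

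Most of the silent or near-silent MMP genes lie side by side. A run of 10 MMP genes, Mmp13, Mmp12, Mmp1b, Mmp3, Mmp1a, Mmp10, Mmp8, Mmp27, Mmp20 and Mmp7 in that order, occupy 427.1 kb of chromosome 9 (positions 7272514 to 7699585, GRCm38.p6, the assembly also named mm10). They hold the collagenases Mmp1a, Mmp1b, Mmp8 and Mmp13, which open fibrillar collagen, the stromelysins Mmp3 and Mmp10, and the matrilysin Mmp7. Together they had 66 counts in the myoblast libraries and 45 in the myotube libraries, and none was detected by the measure above.

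**Figure D2:**
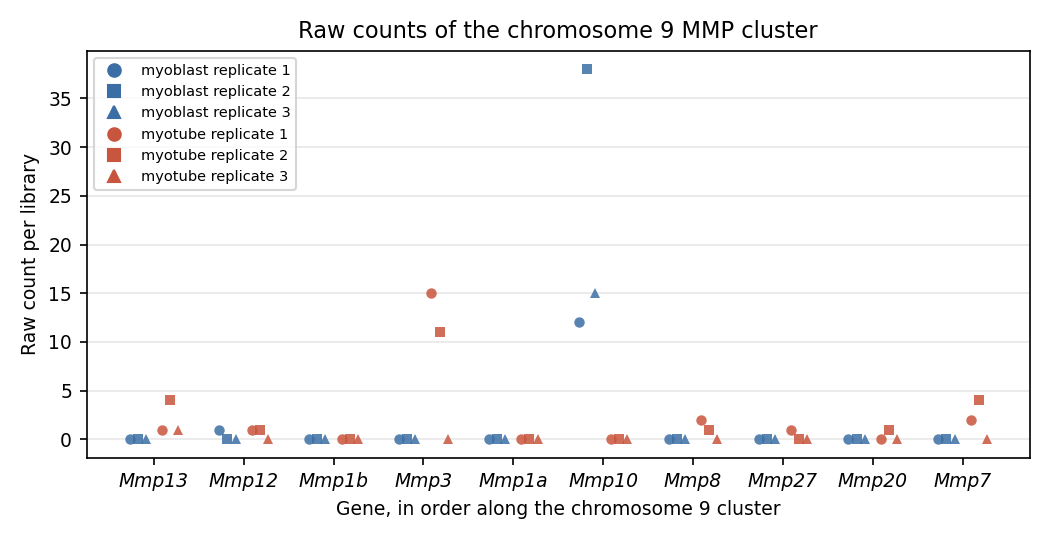
Raw counts per library of the 10 MMP genes of the chromosome 9 cluster, in their order along the chromosome (blue, myoblasts, and red, myotubes). Mmp10 has 12, 38 and 15 counts in myoblasts and 0 in every myotube library, and Mmp3 has 0 in every myoblast library and 15, 11 and 0 in myotubes.

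The cluster's upstream sequences are shown because most of them hold the same short motifs. RefSeq promoter windows (GRCm38.p6) were matched by symbol for 32 of the 46 members. None was matched for Adamts4, Adamts5, Adamts6, Adamts7, Adamts8, Adamts10, Adamts15, Adamts16, Adamts19, Mmp2, Mmp9, Mmp16, Mmp17 or Mmp19. Each window was searched over the 250 bases before the annotated start, on both strands, for the AP-1 letters TGANTCA (bound by Fos and Jun dimers), TATAAA, the GC box GGGCGG and the E-box CAGCTG (a form bound by MyoD), and no match overlapped a match of another motif. The last 120 bases before the start are printed below, 5′ to 3′ on the gene's strand, with every match in capitals (the first 3 capitals of Mmp7 end a TATAAA match that starts before the printed part). The cluster genes are Mmp13 (chr9:7272394-7272513, plus strand), Mmp3 (chr9:7445702-7445821, plus), Mmp1a (chr9:7464021-7464140, plus), Mmp10 (chr9:7502222-7502341, plus) and Mmp7 (chr9:7691970-7692089, plus, the first of its 2 windows). Below them stand 3 expressed members, Mmp14 (chr14:54431478-54431597, plus), Timp3 (chr10:86300292-86300411, plus) and Adamts2 (chr11:50601965-50602084, plus).
Mmp13: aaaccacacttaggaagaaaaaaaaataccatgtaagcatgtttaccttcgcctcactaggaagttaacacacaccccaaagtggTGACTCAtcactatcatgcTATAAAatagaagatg
Mmp3: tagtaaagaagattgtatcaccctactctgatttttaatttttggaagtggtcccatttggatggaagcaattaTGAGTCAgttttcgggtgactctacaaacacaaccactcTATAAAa
Mmp1a: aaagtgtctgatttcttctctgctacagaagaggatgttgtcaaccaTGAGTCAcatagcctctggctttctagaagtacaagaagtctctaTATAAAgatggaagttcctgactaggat
Mmp10: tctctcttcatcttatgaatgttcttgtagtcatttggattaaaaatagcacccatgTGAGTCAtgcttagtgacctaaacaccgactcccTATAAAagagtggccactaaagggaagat
Mmp7: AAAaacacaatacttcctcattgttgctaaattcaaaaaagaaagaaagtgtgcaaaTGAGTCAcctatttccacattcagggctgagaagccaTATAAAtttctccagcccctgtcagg
Mmp14: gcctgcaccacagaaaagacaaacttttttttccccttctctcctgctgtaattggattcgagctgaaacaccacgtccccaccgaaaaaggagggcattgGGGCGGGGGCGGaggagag
Timp3: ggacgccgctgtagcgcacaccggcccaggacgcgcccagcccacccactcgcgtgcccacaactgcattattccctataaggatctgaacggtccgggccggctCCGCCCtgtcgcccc
Adamts2: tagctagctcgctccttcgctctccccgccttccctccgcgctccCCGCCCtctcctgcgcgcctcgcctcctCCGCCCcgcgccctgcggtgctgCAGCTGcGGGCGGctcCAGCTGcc

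In the 5 cluster sequences an AP-1 match stands upstream of a TATAAA match, and in the 3 expressed members the capitals are GC boxes, with 2 E-boxes in Adamts2. Counted from the base before the start as -1, the first base of the AP-1 match was at -63 in Mmp10 and Mmp7, -73 in Mmp1a, -46 in Mmp3 and -35 in Mmp13. The 32 matched members had 35 windows, and a member was counted if any of its windows held a match. For all genes, single windows were counted instead. The AP-1 letters were found in 8 of the 10 cluster genes and in 0 of the 22 other members, against 6.75% of the 32851 windows of all genes. Mmp8 and Mmp27 are the cluster genes without them. TATAAA was found in 7 of the 10 and in 2 of the 22, one of them the expressed Adamts1 (12.4% of all windows). The GC box showed the reverse, with 0 of the 10 and 16 of the 22 (32.7% of all windows), and the E-box was found in 0 of the 10 and 7 of the 22 (13.0% of all windows). These 22 include both detected and undetected genes. Of the undetected, Adamts9, Adamts18, Adamts20 and Mmp25 held a GC box, and Adamts13, Adamts17, Mmp21 and Timp4 held none. Detected Adamts12 and Mmp23 held none either. The cluster genes are neighbours with related sequence, so they are not independent, and a match is a description of letters, not a binding site.

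Stromelysin genes of the cluster differed in the group that held their few counts. Mmp10 was counted 12, 38 and 15 times in myoblasts but 0 times in all 3 myotube libraries, so the groups did not overlap and the level was at least 13.1-fold lower in myotubes, taking 3 counts in the whole group as the floor. It missed the filter on low counts. Without the filter edgeR called it lower (adjusted p = 0.000106), with 10.4% of 30300 genes called lower. Mmp3, in the same cluster, had 0 counts in myoblasts and 15, 11 and 0 in myotubes, at least 14.4-fold higher by the same floor, but replicate 3 of the myotubes had none. Without the filter edgeR called Mmp3 higher (adjusted p = 0.00289), with 12.5% of genes called higher. Mmp13 and Mmp7 each went from 0 counts to 6, at least 3.31-fold higher by the same floor, and neither was called without the filter (edgeR adjusted p = 0.0502 and 0.0577).

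Of all 15932 genes tested, 40.1% were called between the groups by edgeR at an adjusted p under 0.05, 20.5% higher in myotubes and 19.6% lower. Of the 26 tested members 17 were higher, 1 was lower and 8 were not called. The groups did not overlap for 18 of the 26, against 55.9% of all genes tested. The median log2 fold change of these 26 was 1.72, against 0.06 over all genes tested. By family, 10 of 13 tested ADAMTS genes, 5 of 9 MMPs and 2 of 4 TIMPs were higher, and the single lower member was Mmp24. Among the called members, Adamts3, Adamts15, Adamts16 and Timp4 were not detected in myoblasts, and Mmp24 was not detected in myotubes. Such genes passed the filter on low counts through the group in which they were high. Their calls are therefore not independent of the filter, and they enter the counts and the median above. Without myotube replicate 1 the calls were 18 higher and 2 lower of 30 tested members, against 20.5% and 21.0% of all genes (41.6% either way). Scaling by library size alone moved the log2 fold changes of all genes by a median of -0.12, and 15 members were then higher and 1 lower, against 16.8% and 23.1% of all genes (39.9% either way). With the replicate number as a block 17 were higher and 1 lower, against 22.4% and 20.9% (43.2% either way). Without the filter on low counts 19 were higher and 2 lower of 42, against 22.9% of all genes either way, and under a minimum mean count of 50 there were 15 and 0 of 22, against 22.0% higher and 21.4% lower (43.4% either way).

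**Figure D3:**
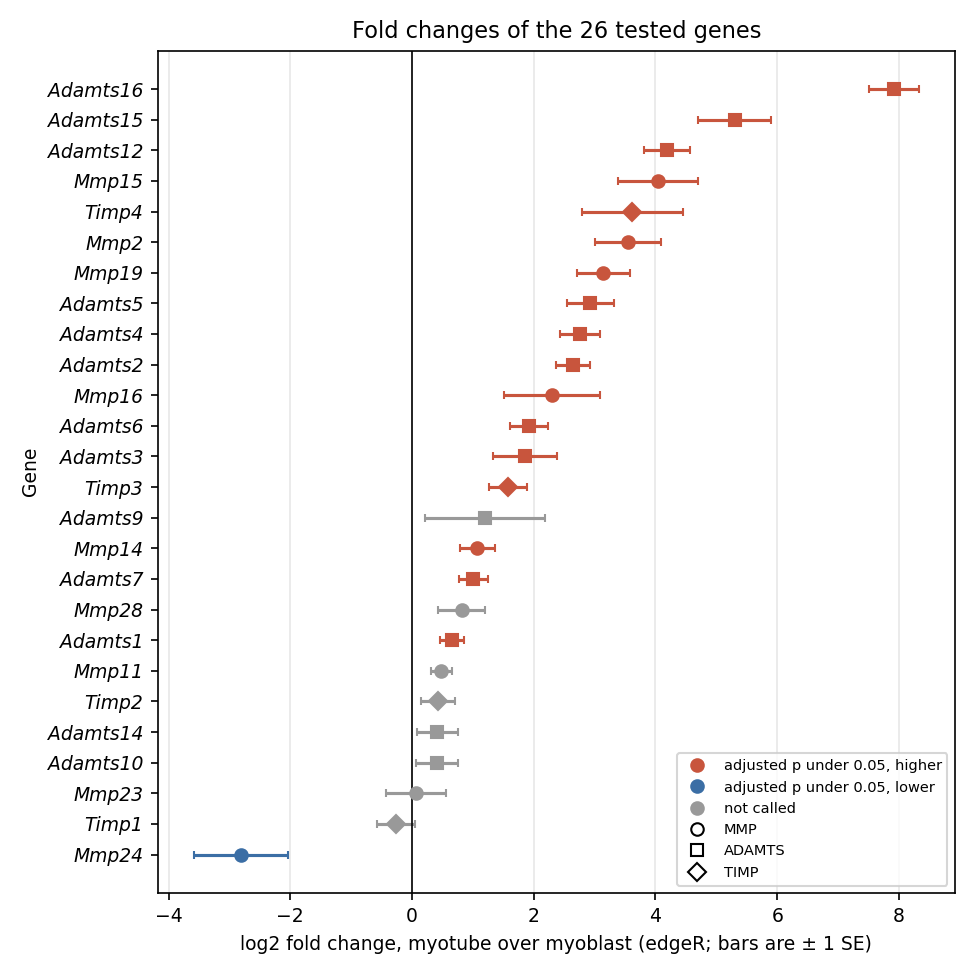
Log2 fold change of myotubes over myoblasts for the 26 tested members (edgeR, bars ± 1 SE, colour by call and symbol by family). Adamts16 is highest at 7.91, and Mmp24, at -2.81, is the only called member below 0.

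The gelatinase Mmp2 was the leading protease gene of the myotubes. MMP2 degrades denatured collagen and basement membrane collagen. Its level was 154, 72.2 and 36.2 CPM in myoblasts, here and below after TMM scaling, and 1418, 813 and 841 CPM in myotubes. Every myotube library lay above every myoblast library, and replicate 1 was highest in both groups. The log2 fold change was 3.55 ± 0.54 (SE, edgeR adjusted p = 0.00192), and 4.23 without myoblast replicate 1. Per length and by group mean, Mmp2 rose from the fifth place of all members in myoblasts (25.9 ± 17.8 RPKM, SD, n = 3) to the first in myotubes (304 ± 101 RPKM). It made up 33 ± 16% of the summed MMP level per length in myoblasts and 72.5 ± 8.56% in myotubes (SD, n = 3). The gene lies on chromosome 8 (92827290 to 92853421, GRCm38.p6).

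Membrane-type MMPs, which sit in the plasma membrane and act at the cell surface, went both ways. Mmp14, the activator of proMMP2, had 155, 182 and 186 CPM in myoblasts and 215, 453 and 432 in myotubes. The groups did not overlap, although myotube replicate 1 was close to the myoblasts. Its log2 fold change was 1.07 ± 0.29 (SE, edgeR adjusted p = 0.0198). The call was lost without any 1 of the myoblast libraries or without myotube replicate 2 or 3 (adjusted p from 0.0565 to 0.0698).

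Mmp15, the membrane-type enzyme next in the series, went from 1.05, 3.77 and 3.09 CPM to 14.8, 61.2 and 53.2 CPM. All myotube libraries were above the myoblasts, and replicate 1 was again the lowest of the myotubes. The log2 fold change was 4.05 ± 0.66 (SE, edgeR adjusted p = 0.00248). Mmp16 showed another pattern, with 17.3, 6.67 and 5.44 CPM in myoblasts and 109, 16.6 and 20.1 in myotubes. Myotube replicate 1 was far above the other libraries, and myotube replicate 2 lay below myoblast replicate 1, so the groups overlapped. Each myotube library was above the myoblast library of its number, and with the replicate block the value was 1.96 (edgeR adjusted p = 0.00239). Without the block, the log2 fold change of 2.30 ± 0.79 (SE, edgeR adjusted p = 0.0486) fell to 0.86 without myotube replicate 1 (adjusted p = 0.184). Without myoblast replicate 2 or 3 the adjusted p was 0.144 and 0.146, and without myoblast replicate 1 the value was 2.99 (adjusted p = 0.0409).

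Mmp24, known from neural tissue, was near the detection limit, counted 31, 22 and 17 times in myoblasts against 0, 3 and 3 times in myotubes. No myotube library reached the lowest myoblast level. It was called lower, by a log2 fold change of -2.81 ± 0.77 (SE, edgeR adjusted p = 0.0215). The call was lost without myoblast replicate 3 (0.0691) or myotube replicate 2 (0.0646), and the value was -2.22 without myotube replicate 1 and -3.47 without myotube replicate 3. The 2 enzymes anchored by a lipid tail were not detected, with 33 counts of Mmp17 in myoblasts and 18 in myotubes, and 3 and 1 of Mmp25.

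Among the remaining MMPs 1 more was called. Mmp19 had 7.15, 5.43 and 2.02 CPM in myoblasts and 55.6, 34.1 and 41.4 in myotubes, without overlap (log2 fold change 3.14 ± 0.44, SE, edgeR adjusted p = 0.00128). Its annotated span overlaps that of Tmem198b by 2739 bases, so its counts are uncertain where strand was not used. Tmem198b itself had a log2 fold change of -0.17.

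Mmp11 (stromelysin-3), cut by furin inside the cell, had 33.9, 39.4 and 28.1 CPM in myoblasts and 49.7, 47.2 and 44.8 in myotubes. The groups did not overlap, but the gene was not called (log2 fold change 0.48 ± 0.18, SE, edgeR adjusted p = 0.0607). Under a minimum mean count of 50, edgeR called it (adjusted p = 0.0364). Mmp28 (epilysin) had 5.65, 8.18 and 4.03 CPM in myoblasts and 15.5, 9.03 and 6.9 in myotubes, and Mmp23 had 1.27, 2.56 and 1.36 against 0.966, 2.35 and 2.14 CPM. Both overlapped between groups and were not called, at 0.81 ± 0.38 for Mmp28 and 0.07 ± 0.49 for Mmp23 on the log2 scale (SE). The direction of Mmp23 turned with scaling by library size alone (-0.05).

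Genes of the ADAMTS family that cut the proteoglycans aggrecan and versican rose in 4 of 5 tested cases. Adamts4 had 12.8, 15.3 and 13.7 CPM in myoblasts and 52.1, 132 and 99.1 in myotubes. Adamts5, the other main aggrecanase, had 35.1, 19.2 and 20.2 CPM in myoblasts and 292, 139 and 136 in myotubes. Neither gene overlapped between groups, and myotube replicate 1 was the lowest myotube library for Adamts4 and the highest for Adamts5. Their log2 fold changes were 2.76 ± 0.33 (SE, edgeR adjusted p = 0.000623) and 2.93 ± 0.39 (0.00103).

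Adamts1 lies 55 kb from Adamts5 on chromosome 16. It stood higher than Adamts5 per length in myoblasts (10.8 ± 1.4 against 2.3 ± 0.826 RPKM, SD, n = 3) and near it in myotubes (17.1 ± 3.41 against 17.5 ± 8.25 RPKM). In CPM, Adamts1 had 65.2, 50.6 and 55.8 in myoblasts and 80.9, 111 and 79.2 in myotubes. These did not overlap, and the rise was small (log2 fold change 0.66 ± 0.20, SE, edgeR adjusted p = 0.0295). Adamts1 was no longer called on leaving out myoblast 2 (0.119), myoblast 3 (0.0934), myotube 2 (0.136) or myotube 3 (0.0553), nor with library size scaling (0.0778).

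Adamts15 and Adamts8 are neighbours on chromosome 9, 20.1 kb apart, and both were scarce in myoblasts. Myoblasts had 11, 2 and 1 counts of Adamts15 against 136, 102 and 74 in myotubes, and the groups did not overlap after scaling. Its log2 fold change was 5.31 ± 0.60 (SE, edgeR adjusted p = 0.000503), and 6.34 without myoblast replicate 1. Of Adamts8 there were 2, 0 and 3 counts in myoblasts against 4, 40 and 17 in myotubes, so that the scaled group totals stood 20.2 to 1 (95% counting interval 8.2 to 64.5). It missed the filter on low counts, and without the filter edgeR called it higher (adjusted p = 0.00252). Adamts9, with 57 counts in myoblasts and 65 in myotubes, was not called, and its log2 fold change of 1.20 ± 0.98 (SE) was -0.11 without myotube replicate 1.

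The procollagen N-propeptidases, which trim fibrillar procollagens, differed in their response. Adamts2 acts on types I, II and III procollagen. It had 8.41, 11.6 and 15.9 CPM in myoblasts and 93.3, 62.2 and 69.2 in myotubes, far apart in every library. The log2 fold change was 2.65 ± 0.28 (SE, edgeR adjusted p = 0.000373). Adamts14, a close relative, had 19.6, 28.8 and 52.3 CPM in myoblasts and 36.4, 47.3 and 50.3 in myotubes. The groups overlapped, and Adamts14 was not called (0.41 ± 0.34 on the log2 scale, SE, edgeR adjusted p = 0.354) except without myoblast replicate 3 (0.87, adjusted p = 0.0466). Per length Adamts14 led this subgroup in myoblasts with 6.46 ± 3.25 RPKM against 1.28 ± 0.402 for Adamts2, and in myotubes the values were 8.59 ± 1.4 and 8.02 ± 1.75 RPKM (SD, n = 3). Adamts3 was scarce, at 0.301, 0.341 and 0.0938 CPM in myoblasts and 1.04, 0.717 and 1.1 in myotubes (log2 fold change 1.86 ± 0.52, SE, edgeR adjusted p = 0.0238). The call was lost without myoblast replicate 3 (0.0719) or myotube replicate 3 (0.0812).

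Adamts7 and Adamts12, which cut cartilage oligomeric matrix protein, were both higher. Adamts12 was counted 34, 27 and 28 times in myoblasts against 360, 424 and 294 times in myotubes. In CPM this was 0.568 to 1.31 against 13.8 to 17, a log2 fold change of 4.19 ± 0.38 (SE, edgeR adjusted p = 0.000217). Adamts7 started higher, at 18.4, 32.1 and 30 CPM, and reached 47.9, 62.2 and 51.9 CPM (1.01 ± 0.24 on the log2 scale, SE, edgeR adjusted p = 0.012). Neither gene overlapped between groups.

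Of the ADAMTS genes with few known substrates, Adamts16 had the highest log2 fold change of the 26 tested members. It was counted 14, 5 and 2 times in myoblasts against 711, 1471 and 805 times in myotubes. This was 0.0938 to 0.234 CPM against 27.5, 47.9 and 46.7 CPM, with myotube replicate 1 the lowest of the myotubes. The log2 fold change was 7.91 ± 0.41 (SE, edgeR adjusted p = 4.4e-05). Adamts16 lies on chromosome 13 (70727798 to 70841845, GRCm38.p6). Per length it moved from the 26th place of the 46 members in myoblasts to the 16th in myotubes.

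By group mean, Adamts6 was the most abundant ADAMTS gene of the myotubes per length, with 28.6 ± 4.74 RPKM (SD, n = 3) and 24.2 ± 3.96% of the summed ADAMTS level. In myotube replicate 2, however, Adamts4 stood above Adamts6 (27.4 against 24.4 RPKM). Adamts6 had 39, 48.9 and 89.2 CPM in myoblasts and 263, 191 and 216 in myotubes, without overlap (log2 fold change 1.92 ± 0.32, SE, edgeR adjusted p = 0.00252). Adamts10, its closest relative, had 17.7, 12.6 and 9.89 CPM in myoblasts and 27, 11.7 and 14.8 in myotubes. These overlapped, and Adamts10 was not called (0.41 ± 0.35 on the log2 scale, SE), and its value was -0.05 without myotube replicate 1. Adamts17 had 1 count in myoblasts and 59 in myotubes, or 97.7 to 1 after scaling (95% counting interval 16.9 to 3924). It also missed the filter, and without the filter edgeR called it higher (adjusted p = 0.000103). Adamts20, which belongs with the proteoglycan-cutting genes above, went from 2 counts to 10, or 8.28 to 1 after scaling (1.77 to 77.7). It was not called by edgeR without the filter (adjusted p = 0.111).

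The inhibitors were abundant in both groups. Per length and by group mean, Timp1, Timp2 and Timp3 took the first 3 places of the 46 members in myoblasts, with 233 ± 105, 112 ± 23.8 and 43.4 ± 13.5 RPKM (SD, n = 3). In myoblast replicate 1, however, Mmp2 stood above Timp3 (45.6 against 29.7 RPKM). In myotubes these 3 TIMP genes came behind Mmp2, with 195 ± 34.8, 150 ± 44.3 and 129 ± 37.4 RPKM, and the ranges of Timp1 and Timp2, and of Timp2 and Timp3, overlapped. Timp3, which binds the matrix and inhibits ADAMTS enzymes as well as MMPs, was the abundant TIMP that changed. It had 242, 358 and 461 CPM in myoblasts and 1385, 983 and 789 in myotubes. All myotube libraries were above all myoblasts, with a log2 fold change of 1.57 ± 0.31 (SE, edgeR adjusted p = 0.00571). Its share of the summed TIMP level per length went from 11.2 ± 0.388% to 27.7 ± 9.98% (SD, n = 3).

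Timp1, the soluble inhibitor induced by growth signals in many cells, overlapped between groups. It had 126, 186 and 309 CPM in myoblasts and 144, 205 and 169 in myotubes (log2 fold change -0.26 ± 0.32, SE, edgeR adjusted p = 0.534). The direction turned without myoblast replicate 3 (0.13). Timp2 had 332, 512 and 464 CPM in myoblasts and 394, 731 and 626 in myotubes, which overlapped too (0.42 ± 0.28 on the log2 scale, SE, edgeR adjusted p = 0.259). Timp2 was higher in myotubes in all 3 same-numbered pairs and was not called with the replicate block either (0.40, adjusted p = 0.123). A p above the threshold does not show that the levels were alike.

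Timp4, the TIMP known from heart and skeletal muscle, was barely seen. It was counted 4, 0 and 0 times in myoblasts against 10, 14 and 7 times in myotubes, or 12.8 to 1 after scaling (95% counting interval 4.54 to 50.1). It passed the filter on low counts and was called higher (edgeR adjusted p = 0.0105), with a fitted log2 fold change of 3.62 ± 0.84 (SE). The fitted value was 6.52 without myoblast replicate 1, which held all of its myoblast counts. The whole of Timp4 lies inside the span of the synapsin gene Syn2, which was also higher (log2 fold change 2.87, edgeR adjusted p = 0.00439). Gene spans were compared here, not exons, and the strand setting is not given in the sources used here. Whether reads of Syn2 add to the counts of Timp4 is therefore not known. Timp1 likewise lies within Syn1 (42 to 115 counts per library) and Timp3 within Syn3 (2 to 6 counts), whose counts were small beside theirs.

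Summed per family, the proteases gained on the inhibitors. MMP genes summed to 90.2, 73 and 56.2 RPKM in myoblasts and 511, 361 and 365 RPKM in myotubes. ADAMTS genes summed to 33.2, 34.4 and 44.6 RPKM and to 121, 122 and 112 RPKM. For both families all myotube libraries lay above all myoblast libraries. TIMP genes summed to 257, 385 and 524 RPKM in myoblasts and 433, 540 and 448 RPKM in myotubes, where the groups overlapped. Without length scaling they did not, at 701, 1056 and 1234 CPM against 1923, 1919.7 and 1584 CPM, a sum in which longer transcripts weigh more. The ratio of the TIMP sum to the MMP and ADAMTS sum was 2.09, 3.59 and 5.19 in myoblasts and 0.686, 1.12 and 0.939 in myotubes. No test was made of these sums, and they compare RNA levels of genes, not amounts of protein.

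**Figure D4:**
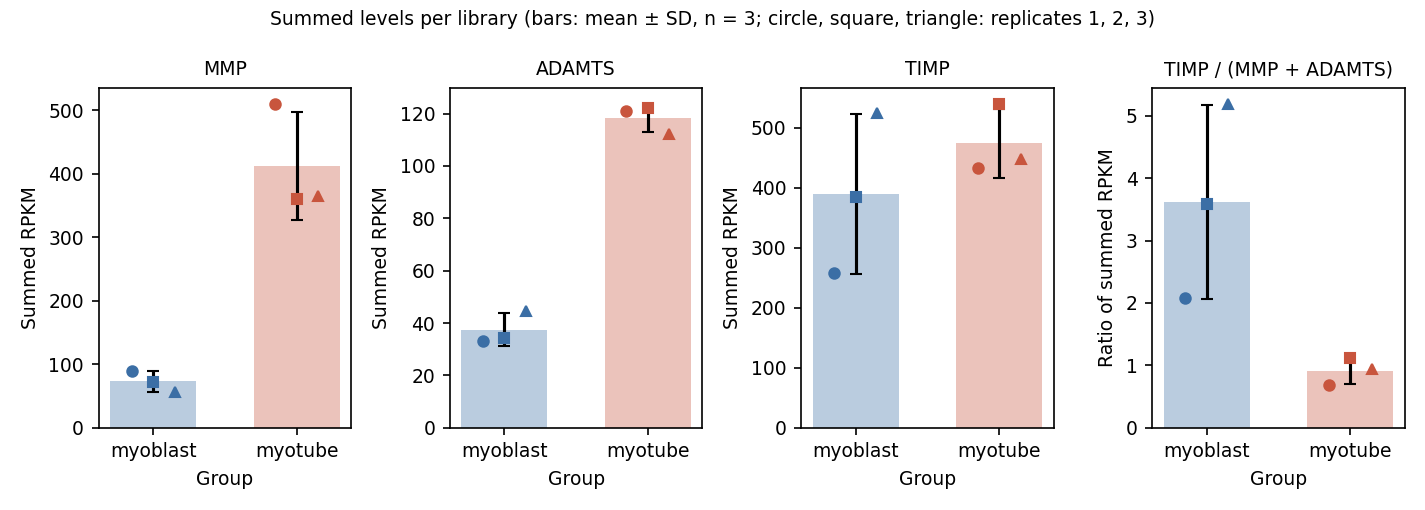
Summed TMM-normalised RPKM of the MMP, ADAMTS and TIMP genes per library, and the ratio of the TIMP sum to the other sums (bars, mean ± SD over 3 libraries, and points, the libraries). The ratio lies between 2.09 and 5.19 in myoblasts and between 0.686 and 1.12 in myotubes.

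Genes that activate, inhibit, bind or feed these enzymes were read from the same fit, in which 20.5% of all genes tested were higher and 19.6% lower. Of the zymogen activators 2 of 7 tested rose and 1 fell, with a median log2 fold change of -0.04. Plat (tissue plasminogen activator) went from 35.5 ± 7.23 to 151 ± 4.9 CPM (SD, n = 3), the convertase gene Pcsk6 from 2.27 ± 0.428 to 17 ± 8.82 CPM, and Plaur, the urokinase receptor, fell from 126 ± 53.3 to 5.6 ± 1.16 CPM. Furin was not called (-0.08 ± 0.29 on the log2 scale, SE). Of 10 tested genes of the membrane-anchored ADAM relatives only Adam8 was called, lower by -2.65 ± 0.25 (SE), and the median was -0.06. With the replicate block this list had 2 higher genes and 1 lower. ADAMTS-like proteins, which share the ADAMTS ancillary domains without the protease, rose in 4 of 6 tested cases (median 1.20) and in 3 with the replicate block, with Adamtsl1 at 6.31 ± 0.56 (7.09 without myoblast replicate 1), Adamtsl2 at 8.79 ± 0.59 and Adamtsl3 at 1.32 ± 0.28 (SE).

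Other inhibitors of proteases rose in 4 and fell in 2 of 7 tested cases (median 1.38). With the replicate block 4 were higher and 1 lower. Cst3 (cystatin C) rose by 1.38 ± 0.33 and Spock2 (testican-2) by 1.03 ± 0.20 on the log2 scale (SE), and the call of Cst3 was lost without myoblast replicate 3 (edgeR adjusted p = 0.0512). Reck, a membrane-anchored inhibitor of MMPs named after its values were seen, went from 3.63 ± 1.78 to 12.6 ± 7.4 CPM (SD, n = 3, edgeR adjusted p = 0.0258). On leaving out myoblast 2, myoblast 3 or myotube 1, Reck was no longer called (0.0726, 0.0655 and 0.0572). Of 12 genes of receptors and clearance 1 rose and 1 fell, with Cd44, which can hold MMPs at the surface, at -1.96 ± 0.33. Sdc1 was at 0.81 ± 0.22 (SE), a call lost without any 1 of the myoblast libraries or myotube replicate 2 or 3 (edgeR adjusted p from 0.0508 to 0.0751).

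Most tested genes of collagens and other matrix substrates were higher, and Col4a1 and Nid1 were lower. Of 10 tested collagen genes 7 rose and 1 fell (median 1.84), and of 15 other matrix genes 10 rose and 1 fell (median 1.72). The lower genes were Col4a1, a basement membrane collagen (-1.65 ± 0.35 on the log2 scale, SE), and Nid1 (nidogen, -2.31 ± 0.42), named after their values were seen. Other basement membrane genes of the list did not fall with them. Nid2 was called higher (1.72 ± 0.39, SE, edgeR adjusted p = 0.00973). Lamb1 (-0.52 ± 0.24), Lamc1 (-0.46 ± 0.18) and Hspg2 (-0.05 ± 0.38) were not called. Col4a2 was at -1.01 ± 0.35 and not called (edgeR adjusted p = 0.0514). With the replicate block 2 collagen genes were lower. Col3a1 went from 1252 ± 179 to 12491 ± 10157 CPM (SD, n = 3), Col5a2 from 878 ± 178 to 2966 ± 744 CPM and Col1a2 from 702 ± 41.6 to 1981 ± 840 CPM. The log2 fold change of Col3a1, 3.32 ± 0.58 (SE), was 2.38 without myotube replicate 1. Fn1 (fibronectin) rose by 2.05 ± 0.40, Thbs1 (thrombospondin) by 2.52 ± 0.32 and Sparc by 1.85 ± 0.32 on the log2 scale (SE). Genes of collagen crosslinking and procollagen processing rose in 6 and fell in 2 of 14 tested cases (median 0.71), with Plod2 at 2.13 ± 0.44, P4ha1 at 1.88 ± 0.39 and Lox at 1.38 ± 0.41 (SE). Without myotube replicate 1 these 3 were at 1.41, 1.24 and 0.68, and the call of Lox was lost without any 1 of the myoblast libraries (edgeR adjusted p from 0.0742 to 0.0996).

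Factors that bind AP-1, ETS and RUNX sites rose in 3 and fell in 5 of 16 tested cases (median -0.34), against 20.5% and 19.6% of all genes. The number higher ran from 0 (without myoblast replicate 2) to 4 (without myotube replicate 1), with 1 without myotube replicate 2 or 3, and the number lower from 4 to 7. Jun was at -0.78 ± 0.21, Junb at 0.77 ± 0.23 and Runx1 at 1.09 ± 0.31 on the log2 scale (SE), and each of these calls was lost without at least 3 of the 6 libraries left out in turn (edgeR adjusted p up to 0.0762, 0.108 and 0.0967). Junb was also lost with library size scaling (0.0718). Fosl1 (Fra-1), a Fos family member named after its values were seen, went from 57 ± 22.6 to 2.88 ± 0.85 CPM (SD, n = 3), which is -4.30 ± 0.36 on the log2 scale (SE). Its groups did not overlap, and the call held in all 13 alternatives.

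**Figure D5:**
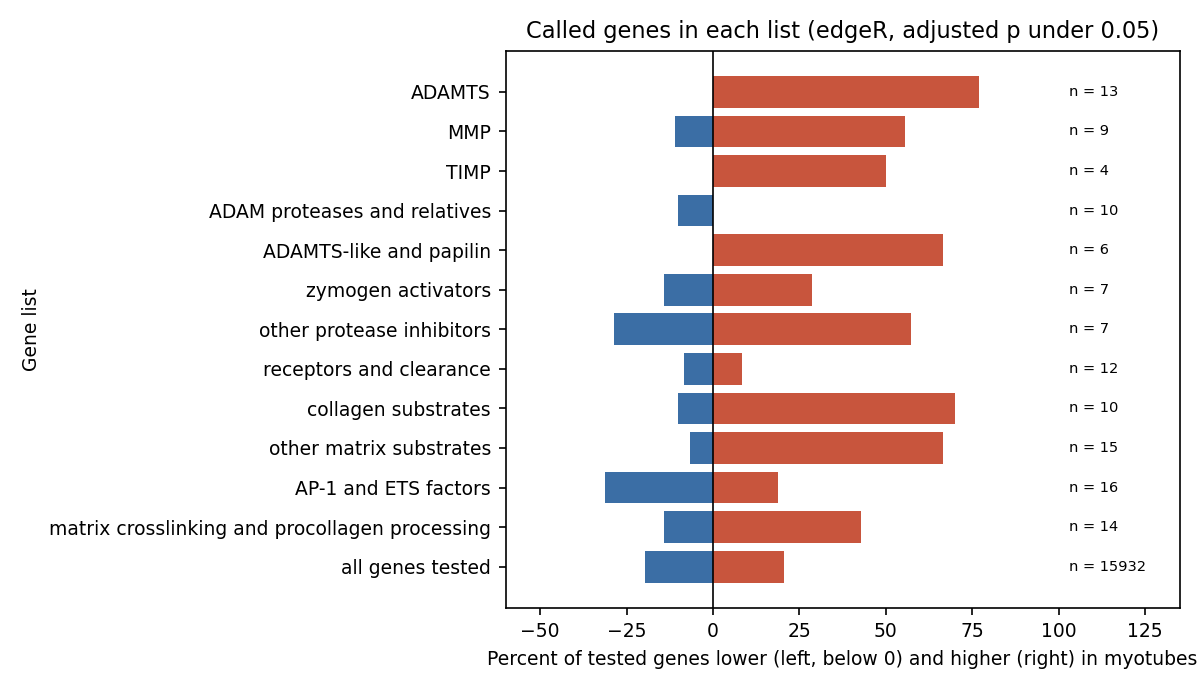
Percent of tested genes called lower (blue, left of 0) and higher (red, right of 0) in myotubes, for the 3 member families, the lists of related genes and all 15932 genes tested (edgeR, adjusted p under 0.05, number tested at the right). The ADAMTS bar reaches 10 of 13 genes on the higher side, and the ADAM list has 1 lower gene of 10.

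Myotube replicate 1 did not move the members in 1 direction. Of the 23 tested members detected in myotubes, it was the lowest myotube library for 9, the highest for 11 and between the others for 3. Its level of Mmp16 was 5.95 times the mean of replicates 2 and 3, and that of Adamts5 was 2.12 times, while Mmp15 stood at 0.258 and Adamts4 at 0.451 times that mean. The cycling, fibroblast and myotube marker sums of this library are given with the markers above, and their part in these differences was not tested.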

How the data were processed

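Tables: the authors deposited raw counts per gene of the C2C12 libraries, with an identifier, a symbol and a length per gene, per the file headers. Per the submitters' processing notes, the genome was mm10 and the tools were STAR 2.5.1b, featureCounts 1.5.1, Salmon 0.12.0, DESeq2 1.18.1 and bcl2fastq, with no step named for each. The strand setting of the counting is not given in the sources used here. The deposited normalised and snoRNA tables were not used here.

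All 55385 genes entered edgeR 4.0.16 (R 4.3.3) with TMM scaling. Low counts were filtered with filterByExpr, and group was the only term of a robust quasi-likelihood fit. P-values were adjusted by Benjamini-Hochberg over the 15932 genes that passed, at a threshold of 0.05. The SE was taken from the F statistic, as the size of the log2 fold change over its square root. CPM and RPKM were computed from the raw counts with TMM scaling and, for RPKM, the deposited lengths. Counting intervals are exact at 95% and, like the floor of 3 counts, cover counting error only. Libraries held 18335785 to 54083215 counts, and all pairs within a group differed beyond sampling noise (chi-square per degree of freedom at least 94.4).

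Same-numbered libraries of the 2 groups deviated from their group means together (correlations 0.232, 0.189 and 0.17, each above 0.1), while the unmatched pair of myoblast 3 and myotube 2 had a higher one, 0.358. Since every matched value was above 0.1, the blocked fit was treated as a pairing, though no label states what a shared replicate number stands for. Alternatives were this block, DESeq2 1.42.0, limma-voom (limma 3.58.1), other scalings and filters, and leaving out each library. Every member detected in a group was described singly. Of each related list, the 3 called genes of highest mean CPM were named, except where a result is not reported here. Members and lists were chosen with earlier results of these data known.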

Additional observations from a re-analysis of the deposited data

How the results depend on the processing

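Over the 13 alternative fits, 15 to 19 members were called higher, against 17 as reported, while 22.9% to 44.3% of all genes were called either way. The number called lower was 2 without a filter on low counts (Mmp10 joined Mmp24), 0 when a mean count of at least 50 was required, which leaves Mmp24 untested, and 0 to 2 when each library was left out in turn. With the replicate block 17 members were higher and 1 lower, and the block changed no call of a member or of a related gene named here. Of the 18 called members, 13 kept their call in every alternative that tested them; the exceptions were Adamts1, Adamts3, Mmp14, Mmp16 and Mmp24. Besides the losses given with the results, Mmp16 was lost with limma-voom (adjusted p = 0.0953), library size scaling (0.0728), no filter (0.24) and a mean count of at least 50 (0.0537). Values that turned direction belonged to genes not called: over the libraries left out in turn, Adamts10 ran from -0.051 (without myotube replicate 1) to 0.65, Adamts9 from -0.11 (without myotube replicate 1) to 1.54, Timp1 from -0.53 to 0.13 (without myoblast replicate 3) and Mmp23 from -0.20 (without myotube replicate 2) to 0.46. Mmp23 was also below 0 without myoblast replicate 1 (-0.13) or 3 (-0.09) or myotube replicate 3 (-0.06), and with library size scaling (-0.054). The cause was not tested. Detected members numbered 19 to 23 in myoblasts and 21 to 28 in myotubes under the other thresholds. The related genes, read from the same alternatives after the data were seen, gave 31 to 40 higher and 12 to 20 lower, against 38 and 14.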
